A study of Mus musculus with 4 samples.

Results

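Immunoglobulin genes were read from 29 probe sets out of the 23410 that the platform annotation pairs with at least 1 gene symbol. A probe set is the group of short array probes that reads one transcript region. A set was taken when every symbol listed for it named an immunoglobulin heavy, kappa or lambda segment, which gave 10 heavy chain, 17 kappa and 2 lambda sets. A single symbol was listed for 15 of them and several for 14. The sets carry 29 different symbols, and all 29 matched a RefSeq gene of GRCm38.p6, a mouse genome assembly. They comprise 21 variable segments, 2 variable pseudogenes, 1 joining segment and 5 constant regions. The heavy chain symbols (6) lie on chromosome 12, the kappa symbols (20) on chromosome 6 and the lambda symbols (3) on chromosome 16. The array files name no genome build, so no coordinates are given. A further 2 sets list the kinase gene Map3k20 beside kappa symbols and were left out.

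The 4 arrays hold naive CD8 T cells, purified by flow cytometry from BALB/c spleens, with 2 arrays for Klf13 knockout (KO) mice and 2 for wild-type (WT) mice. Klf13 encodes a zinc-finger transcription factor of the KLF family, and the title of the series ties it to the regulation of CD8 T cells with memory-like features. All 4 arrays share strain, organ and cell type and differ in genotype. The sources used here give neither the deleted part of Klf13, nor the age of the mice, nor the surface markers of the sort. No label states that same-genotype samples are separate animals, so the p-values cover only the spread seen among these arrays, which may be technical.

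An antibody is built of a pair of heavy and a pair of light chains, and each light chain is of the kappa or the lambda type. B cells assemble a variable region for each chain by joining gene segments, and plasma cells, which descend from B cells, transcribe the finished genes at very high rates. The constant region sets the class of the antibody: Ighm encodes that of IgM, Ighg3 that of IgG3 and Igha that of IgA. CD8 T cells use a different set of rearranged genes, the T cell receptor chains, and do not make antibodies.

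On the deposited log2 scale, Klf13 read 5.46 and 5.43 in the KO arrays and 7.01 and 7.15 in the WT arrays, a 3.10-fold lower value (limma adjusted p = 7.85e-05). Whether its probe set lies inside the deleted part is not known here. The CD8 chain genes Cd8a and Cd8b1 read between 10.86 and 11.25 on all arrays, and Cd4 between 3.47 and 4.07. Zbtb7b, the other listed marker of CD4 T cells, read 5.57 and 5.67 in the KO arrays against 5.21 and 5.24 in the WT arrays. Its difference of 0.39 did not pass (limma adjusted p = 0.0688), though the groups do not overlap. The array medians over the whole table lay between 4.31 and 4.37, and the upper quartile was 6.52 in KO replicate 1 against 6.63 to 6.67 in the other arrays.

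Immunoglobulin transcripts were higher in the KO samples. Of the 29 sets, 21 rose, 0 fell and 8 did not pass (limma, Benjamini-Hochberg adjusted p under 0.05 over all 23410 sets). Over all sets tested, 1.12% rose and 1.01% fell by the same test. At an unadjusted p under 0.05, 24 immunoglobulin sets were higher and 0 lower (7.47% and 8.95% over all sets). The median difference between KO and WT was 0.63 on the log2 scale, or 1.54-fold, against 0.01 over all sets. In 27 of the 29 sets both KO arrays lay above both WT arrays, a pattern seen in 23.5% of all sets. Among the 100 largest rises of all named sets, 10 were immunoglobulin sets. In bulk RNA such as this, more cells of a type and more RNA per cell cannot be told apart.

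The number of calls varied with the sets tested and with the arrays included. When all 35556 probe sets of the table were tested, unnamed ones included, limma called 0 of the 29 (adjusted p from 0.0725 for the smallest to 0.176 for the largest among the 21), although 24 were higher at an unadjusted p under 0.05. Only 0.0647% of all sets were called higher in that fit. That fit also called 0 of the B cell markers, plasma cell markers and T cell receptor segments described further on. Without KO replicate 1, 13 of the 21 were called, and the median over all immunoglobulin sets was 0.56. Without WT replicate 1, 15 of the 21 were called, and without WT replicate 2, 16. The direction of the 21 sets was the same in all 11 alternatives in which each was tested.

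**Figure D1:**
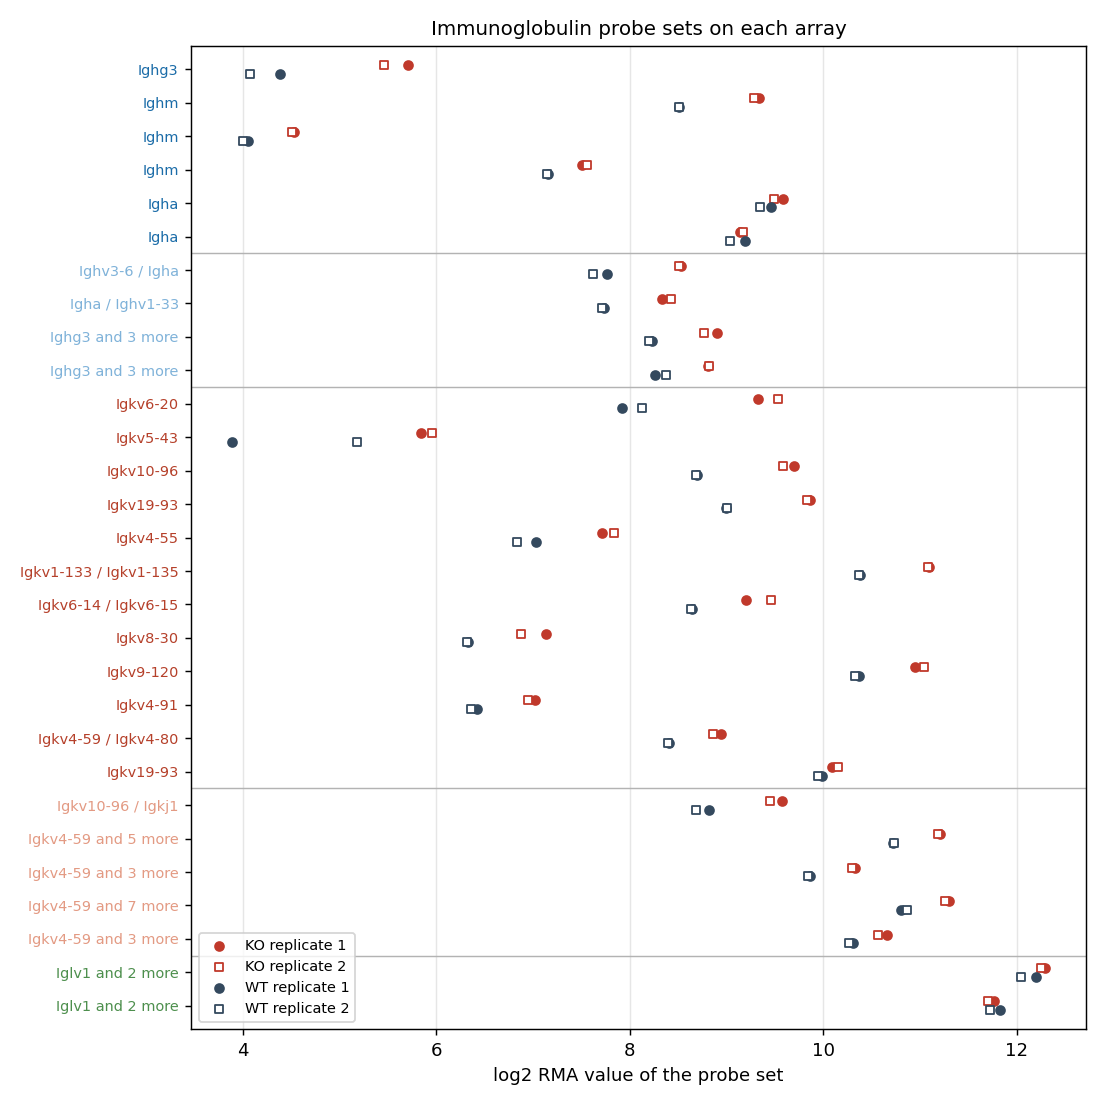
Values of the 29 immunoglobulin probe sets on each array, on the deposited log2 scale, grouped from top to bottom into heavy constant, heavy spanning, kappa variable, kappa spanning and lambda sets. Filled and open symbols are replicates 1 and 2. The KO arrays (red) lie to the right of the WT arrays (dark) in 27 sets, and they overlap in 1 Igha set and 1 lambda set.

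Among the constant-region genes of the heavy chain, Ighm was read by 3 sets, of which 2 rose. Ighm set 10402991 read 9.34 and 9.28 in the KO arrays and 8.51 and 8.51 in the WT arrays, a 1.74-fold rise (log2 difference 0.80, SE 0.09, limma adjusted p = 0.00279). Ighm set 10403069 read 4.53 and 4.51 against 4.06 and 4.0, all below the named-set medians of their arrays (4.65 to 4.75). Its difference of 0.49 passed (limma adjusted p = 0.0277). That call was lost without KO replicate 1 (limma adjusted p = 0.0772), WT replicate 1 (0.0783) or WT replicate 2 (0.153). Ighm set 10402864 read 7.51 and 7.56 against 7.16 and 7.14, and its difference of 0.39 did not pass (limma adjusted p = 0.0646), though it passed in 4 alternatives (0.0232 to 0.0345). In each of the 3 sets the KO arrays stood above the WT arrays without overlap. The sets 10402864 and 10403069 share annotated transcripts, while 10402991 shares none with them.

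The IgG3 gene Ighg3 showed the largest difference of the heavy chain sets. It read 5.71 and 5.46 in the KO arrays and 4.39 and 4.08 in the WT arrays, a 2.55-fold rise (log2 difference 1.35, SE 0.13, limma adjusted p = 0.00127). The WT values lay below the medians of the named sets on those arrays (4.65 and 4.66). The gap between the lower KO array and the higher WT array was 1.07, several times the spread within either genotype (SD 0.178 and 0.216, n = 2).

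The sets for the IgA gene Igha gave lower differences alone than together with variable segments, a contrast that was not tested. The 2 sets listed for Igha alone did not pass. The first, 10403034, read 9.58 and 9.49 in the KO arrays against 9.46 and 9.35 in the WT arrays (difference 0.13, limma adjusted p = 0.549). The second, 10403063, read 9.14 and 9.17 against 9.19 and 9.04 (difference 0.04, limma adjusted p = 0.880), and its groups overlap. These 2 sets are annotated with shared transcripts and are not independent readings.

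All 4 sets that list both a constant region and heavy variable segments rose, by 0.50 to 0.83. The set for Ighv3-6 and Igha read 8.53 and 8.51 in the KO arrays against 7.77 and 7.62 in the WT arrays, a 1.77-fold rise (limma adjusted p = 0.00352). The set for Igha and the variable pseudogene Ighv1-33 read 8.33 and 8.43 against 7.73 and 7.71, a 1.58-fold rise (limma adjusted p = 0.00817). The other two list Ighg3, Igha, Ighv1-33 and Ighv1-26 together. Set 10403015 read 8.90 and 8.77 against 8.23 and 8.20 (difference 0.63, limma adjusted p = 0.0112). Set 10403018 read 8.81 and 8.82 against 8.26 and 8.37 (difference 0.50, limma adjusted p = 0.0283). Both KO arrays exceeded both WT arrays in each of these 4 sets. Which of the listed segments gave the signal cannot be told from a set with several symbols. No set was listed for heavy variable segments alone. In all, 7 of 10 heavy chain sets rose (1.12% of all sets), with a median difference of 0.56.

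Of the 17 kappa sets 14 rose, 0 fell and 3 did not pass, with a median difference of 0.68 (1.12% of all sets rose and 1.01% fell). At an unadjusted p under 0.05, 16 were higher and 0 lower (7.47% and 8.95% over all sets). Both KO arrays lay above both WT arrays in all 17 (23.5% of all sets). Of the 17, 7 belong to 1 group linked by shared annotated transcripts, so they are not all separate readings. The 12 sets listed for variable segments alone had a median difference of 0.70, and 10 of them rose. The 5 sets that also list the joining segment Igkj1 or the constant region Igkc had a median of 0.46, and 4 rose.

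The largest kappa difference was that of the variable segment Igkv6-20, which read 9.33 and 9.53 in the KO arrays and 7.92 and 8.13 in the WT arrays. This was a 2.65-fold rise (log2 difference 1.40, SE 0.11, limma adjusted p = 5.04e-04), and it ranked 22 among the rises of all 23410 sets. Every KO value exceeded every WT value by at least 1.20. Igkv6-14 and Igkv6-15, segments of the same family read by 1 set, rose 1.61-fold, from 8.64 and 8.63 to 9.20 and 9.46 (limma adjusted p = 0.0142). The KO arrays differed from each other by 0.26 there, the widest gap between KO arrays among the immunoglobulin sets.

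Igkv10-96 was read by 2 sets that share annotated transcripts, and both rose. Listed alone it read 9.70 and 9.58 in the KO arrays against 8.69 and 8.68 in the WT arrays, a 1.94-fold rise (limma adjusted p = 0.00128). Listed with the joining segment Igkj1 it read 9.57 and 9.45 against 8.82 and 8.68, a 1.69-fold rise (limma adjusted p = 0.00566). The KO and WT arrays were apart in both readings.

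The 2 sets listed for Igkv19-93 gave unequal differences. Set 10545177 read 9.86 and 9.83 in the KO arrays against 8.99 and 9.01 in the WT arrays, a 1.79-fold rise (log2 difference 0.84, SE 0.09, limma adjusted p = 0.00193). Set 10545182 read 10.09 and 10.15 against 9.99 and 9.95, and its difference of 0.15 (SE 0.09) did not pass (limma adjusted p = 0.444). In both sets the KO arrays were the higher ones, but in the second they cleared the WT arrays by 0.10 only. Both are annotated with transcripts that other kappa sets list as well.

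The Igkv4 family, a large group of similar variable segments, was named in 7 sets, of which 6 rose. Igkv4-55 read 7.71 and 7.84 in the KO arrays against 7.03 and 6.83 in the WT arrays, a 1.79-fold rise (limma adjusted p = 0.00511). Igkv4-91 read 7.02 and 6.95 against 6.42 and 6.36, a 1.52-fold rise (limma adjusted p = 0.0114). Igkv4-59 and Igkv4-80, read by 1 set, went from 8.41 and 8.40 to 8.94 and 8.86, a difference of 0.49 (limma adjusted p = 0.0270). The first 2 sets share no annotated transcript with any other immunoglobulin set. Without KO replicate 1, Igkv4-55 alone of the 6 was still called, while Igkv4-91 (limma adjusted p = 0.0508), the set for Igkv4-59 and Igkv4-80 (0.0772) and the 3 sets described next (0.0748 to 0.0991) were not.

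The constant region Igkc was listed in 4 sets, each together with Igkv4 segments, and 3 of them rose by 0.45 to 0.47. Set 10545196 read 11.21 and 11.19 in the KO arrays against 10.72 and 10.73 in the WT arrays, a 1.39-fold rise (limma adjusted p = 0.0304). Set 10545184 read 10.33 and 10.30 against 9.86 and 9.84 (limma adjusted p = 0.0334), and set 10545198 read 11.30 and 11.26 against 10.80 and 10.87 (limma adjusted p = 0.0395). These values were lost as calls without KO replicate 1, without WT replicate 1 and without WT replicate 2. Set 10545187 read 10.66 and 10.57 against 10.31 and 10.27, and its difference of 0.32 did not pass (limma adjusted p = 0.122). The 4 Igkc sets belong to 1 chain of 7 kappa sets linked by shared annotated transcripts, so they do not count as separate readings.

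Of the other variable segments, Igkv1-133 and Igkv1-135, read by 1 set, were the most even between replicates. They read 11.09 and 11.08 in the KO arrays and 10.38 and 10.37 in the WT arrays, a 1.64-fold rise (limma adjusted p = 0.00501). Igkv9-120 read 10.95 and 11.04 against 10.37 and 10.33, a 1.56-fold rise (limma adjusted p = 0.00858). Igkv8-30 read 7.13 and 6.88 against 6.33 and 6.32, a 1.61-fold rise (limma adjusted p = 0.0142). None of these segments overlapped between genotypes. The 2 sets left out because they also list Map3k20 hold Igkv9-120 among their kappa symbols, and they rose by 0.79 and 0.64 (limma adjusted p = 0.00671 and 0.00818).

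Igkv5-43 had a large mean difference that did not pass. It read 5.84 and 5.96 in the KO arrays, but 3.89 in WT replicate 1 and 5.18 in WT replicate 2. The difference of 1.36 had an SE of 0.32 (limma adjusted p = 0.0731). It was 0.72 without WT replicate 1 and 2.01 without WT replicate 2. Each of these fits holds 1 WT array, so the gap between the WT arrays does not enter its error. The set was called with 1 set per gene (limma adjusted p = 0.0495), among the sets with higher means (0.0422), after median centring (0.0328) and with the replicate block (5e-07). It was not called with all probe sets (limma adjusted p = 0.323), after a further quantile normalization (0.127) or in the robust fit with a variance trend (0.346). The WT arrays lay farther apart (SD 0.911, n = 2) than in any other immunoglobulin set.

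The lambda chain was read by 2 sets, each listing the variable segments Iglv1 and Iglv2 and the constant region Iglc1, and neither passed. Set 10438405 read 12.29 and 12.25 in the KO arrays against 12.20 and 12.04 in the WT arrays (difference 0.15, SE 0.09, limma adjusted p = 0.480). Set 10438415 read 11.76 and 11.70 against 11.83 and 11.72 (difference -0.05, SE 0.09, limma adjusted p = 0.826), and its groups overlap. At an unadjusted p under 0.05, 0 lambda sets were higher and 0 lower by limma. The median lambda difference was 0.05. The 2 sets share annotated transcripts, and both read near the top of the array's range, at percentiles 99.7 and 99.3 of the named sets by mean value. The part of this high value in the small difference was not tested.

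**Figure D2:**
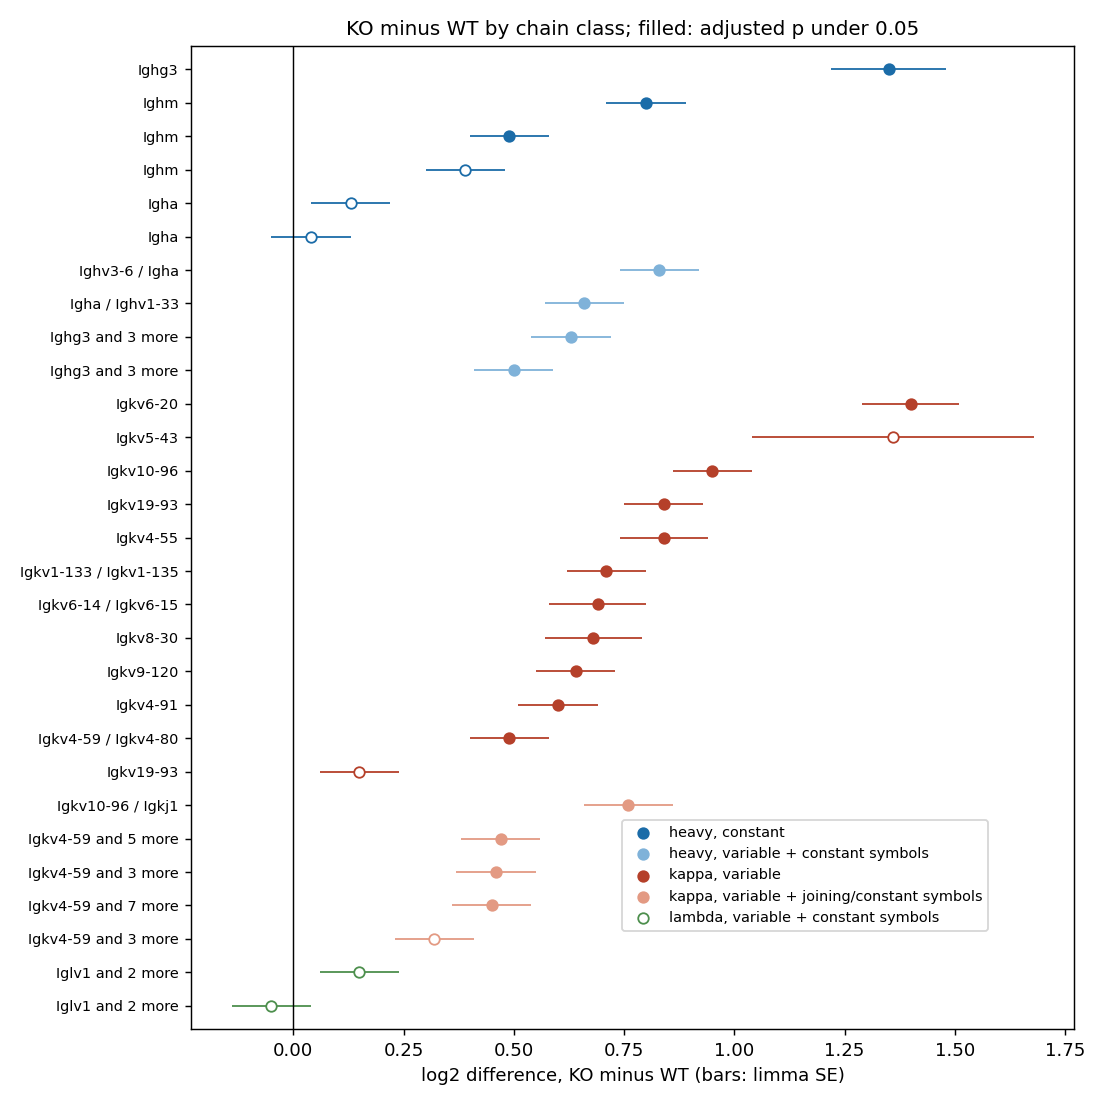
Difference between the KO and WT means of each immunoglobulin probe set, on the log2 scale, with limma standard errors as bars and colour for the chain class. Filled points passed at an adjusted p under 0.05; the kappa and heavy chain sets lie mostly between 0.45 and 0.95, while the 2 lambda sets, the 2 sets for Igha alone and 1 Igkv19-93 set lie at 0.15 or below.

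The chains were also compared array by array, as the mean deviation of their sets from each set's own mean over the 4 arrays. The kappa sets stood at 0.35 and 0.35 in the KO arrays and at -0.38 and -0.32 in the WT arrays. The heavy chain sets stood at 0.31 and 0.27 against -0.25 and -0.33. For both chains the genotypes were far apart and the arrays of a genotype close together. The lambda sets stood at 0.05 and 0.00 against 0.04 and -0.09, where the genotypes overlap. The mean difference was thus 0.70 for kappa, 0.58 for heavy chain and 0.05 for lambda sets. Whether the chains differ from each other was not tested: with 2 arrays against 2, an exact permutation test cannot give a two-sided p under 0.333.

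Shared transcripts reduce the number of separate readings. By annotated transcripts in common, 17 of the 29 sets fall into 6 linked groups, and 12 sets share none with another. Of those 12 sets, 11 rose, and the exception was Igkv5-43. Of the 6 linked groups, 4 held at least 1 set that rose. The 2 without one were the lambda pair and the pair for Igha alone.

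Differences on these arrays vary with the value of a set, so immunoglobulin sets were set beside others of like mean value. Among sets with a mean from 8 to 10, the 13 immunoglobulin sets had a median difference of 0.69 and the 2326 named sets one of -0.08, and 11 of the 13 rose against 1.07% of the 2326. From 10 upwards, the 9 immunoglobulin sets had a median of 0.45 against -0.06 for 789 sets, and 5 rose against 1.01% of the 789. From 6 to 8 the medians were 0.64 for 4 sets and -0.09 for 5553, and 3 of the 4 rose against 1.31%. Below 6 they were 1.35 for 3 sets and 0.05 for 14742, and 2 of the 3 rose against 1.06%.

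**Figure D3:**
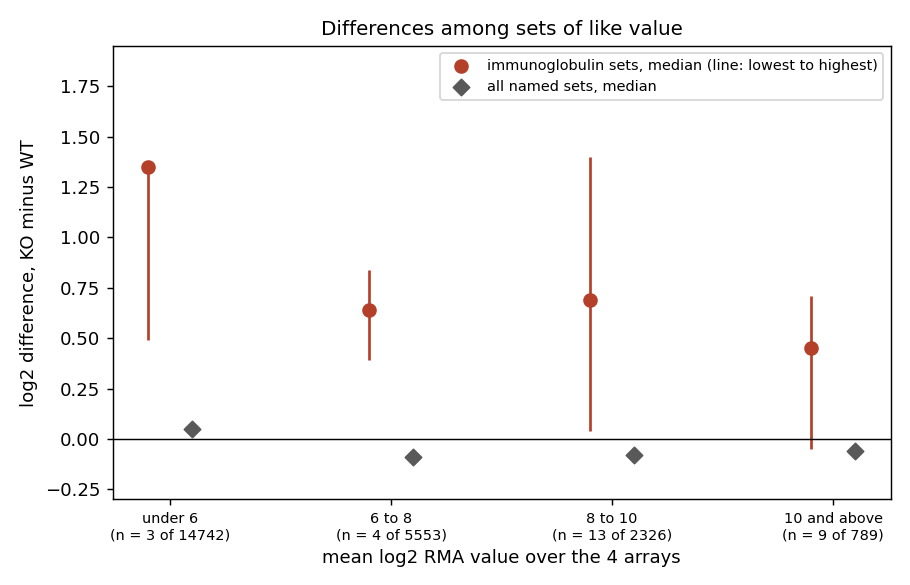
Median difference between KO and WT (log2) of the immunoglobulin probe sets (red points, with lines from the lowest to the highest) and of all named sets (grey) in 4 ranges of mean log2 value. The immunoglobulin medians run from 0.45 to 1.35 and those of all named sets from -0.09 to 0.05.

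Of 21 measured B cell markers, 2 rose, 0 fell and 19 did not pass, with a median difference of 0.11 (at an unadjusted p under 0.05, 7 higher and 0 lower). Over all sets 1.12% rose, and 7.47% were higher at an unadjusted p under 0.05. In 9 of the 21 markers both KO arrays lay above both WT arrays, and in 0 below (23.5% and 24.1% over all sets). The median of the markers was 0.22 without KO replicate 1. It was also 0.22 among the 11 markers that belong to the 11705 sets with the higher means. Whether the markers differ from the immunoglobulin sets was not tested. The surface protein gene Ly6d rose by 0.64 (limma adjusted p = 0.0203) and Cd74, the invariant chain of MHC class II, by 0.53 (limma adjusted p = 0.0220). Cd79b, a signalling chain of the B cell receptor, read 6.48 and 6.84 in the KO arrays against 6.08 and 6.21 in the WT arrays, a difference of 0.51 that did not pass (limma adjusted p = 0.0837). Its partner Cd79a differed by 0.32 (limma adjusted p = 0.213). Ms4a1, which encodes the B cell surface protein CD20, read 4.19 and 4.74 against 4.40 and 4.51, a difference of 0.01 (limma adjusted p = 0.985). Cd22 and Fcer2a, also B cell surface genes, differed by -0.05 and -0.09. The mean value of the 21 markers was 5.03 and 5.09 in the KO arrays and 4.86 and 4.91 in the WT arrays.

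Of 18 plasma cell markers 2 rose, 0 fell and 16 did not pass, with a median difference of 0.14 (at an unadjusted p under 0.05, 8 higher and 0 lower). Over all sets 1.12% rose and 1.01% fell, and 7.47% were higher and 8.95% lower at an unadjusted p under 0.05. In 13 of the 18 markers both KO arrays lay above both WT arrays, and in 0 below (23.5% and 24.1% over all sets). Mzb1, a chaperone of antibody assembly, rose by 0.64 (7.13 and 7.31 against 6.56 and 6.60, limma adjusted p = 0.0134). Derl3, which acts in the disposal of misfolded secretory proteins, rose by 0.52 (limma adjusted p = 0.0477). Creld2, a protein of the endoplasmic reticulum, differed by 0.39 and did not pass (limma adjusted p = 0.0628). Jchain, which joins IgM and IgA into polymers, read 11.04 and 11.06 in the KO arrays against 10.70 and 10.71 in the WT arrays. Its difference of 0.35 did not pass (limma adjusted p = 0.0896), though the groups do not overlap. Sdc1, Xbp1 and Tnfrsf17, further plasma cell genes, differed by 0.31, 0.30 and 0.39 and did not pass, and Prdm1 by 0.14. The mean value of the 18 markers was 7.47 and 7.61 in the KO arrays and 7.33 and 7.31 in the WT arrays. Of the B and plasma cell genes that did not pass, Cd79b and Creld2 were named by their p; the others were chosen after their values were seen.

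Some of the neutrophil and myeloid markers rose as well. For the counts below, 1.12% of all sets rose and 1.01% fell. At an unadjusted p under 0.05, 7.47% of all sets were higher and 8.95% lower by limma. Of 8 neutrophil markers, Mpo, Elane, Prtn3 and Ctsg rose, with a median of 0.96 for the list, and its mean value was 5.42 and 5.40 in the KO arrays against 4.34 and 4.49 in the WT arrays. The other four, Ngp, Ltf, S100a8 and S100a9, read between 2.86 and 3.65 on all arrays and did not pass. Of 6 myeloid markers 4 rose (Lyz2, Csf1r, Tyrobp and Mpeg1), with a median of 0.60 (at an unadjusted p under 0.05, 4 higher and 1 lower). The lower one was Cd68, with a difference of -0.34 that did not pass (limma adjusted p = 0.202), and Itgam differed by 0.16. Of 7 CD8 T cell markers 0 passed (at an unadjusted p under 0.05, 0 higher and 1 lower by limma), with a median of -0.03. The lower one was Thy1, with a difference of -0.34 (limma adjusted p = 0.109) and both KO arrays below both WT arrays. Next by p were Cd3d (-0.20, limma adjusted p = 0.386) and Cd3g (0.08, limma adjusted p = 0.719). Of 3 measured markers of naive T cells 0 passed, with a median of -0.27 (at an unadjusted p under 0.05, 0 higher and 2 lower by limma). Il7r, a cytokine receptor chain, differed by -0.35 (limma adjusted p = 0.0908), the homing receptor Ccr7 by -0.27 (limma adjusted p = 0.175) and the transcription factor Lef1 by 0.10. In Il7r and Ccr7 both KO arrays lay below both WT arrays. The part of other cell types in the immunoglobulin result was not tested.

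**Figure D4:**
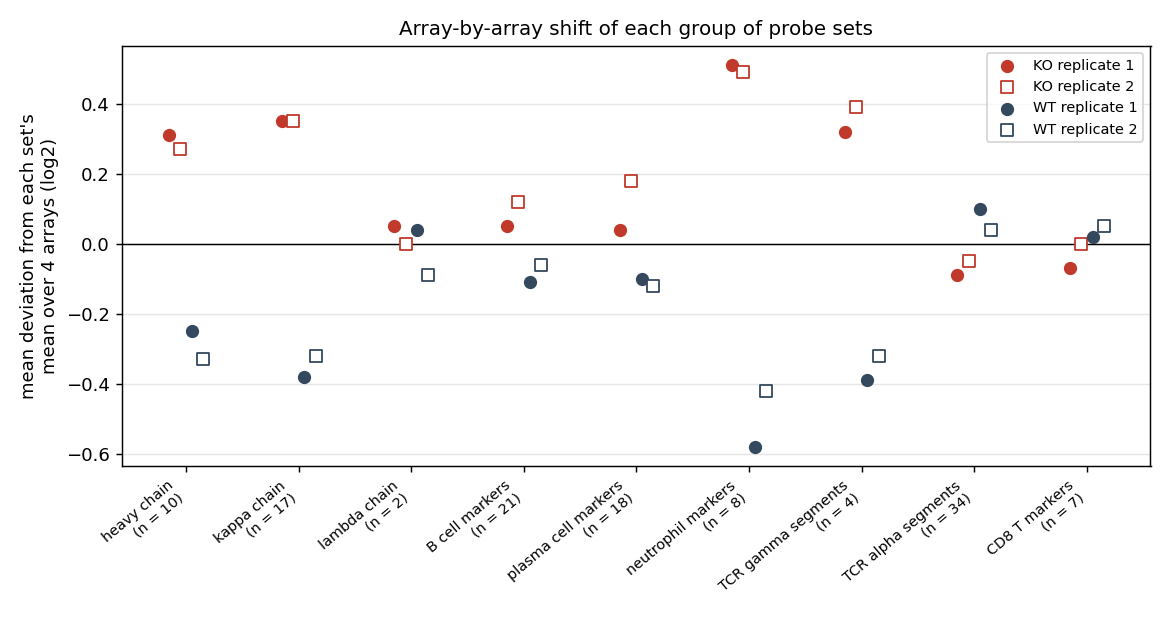
Mean deviation of each group of probe sets from the sets' own means over the 4 arrays (log2), for each array; n is the number of sets. Kappa, heavy chain, neutrophil and T cell receptor gamma sets lie between 0.27 and 0.51 in both KO arrays. B cell markers lie at 0.05 and 0.12 in the KO arrays, plasma cell markers at 0.04 and 0.18, lambda sets at 0.05 and 0.00, and T cell receptor alpha sets at -0.09 and -0.05.

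The genes that assemble, diversify and regulate antibody genes did not pass the test, which 1.12% of all sets passed as higher and 1.01% as lower. Of all sets, 7.47% were higher and 8.95% lower at an unadjusted p under 0.05 by limma. Of 6 genes of the surrogate light chain and of recombination, 0 passed (median 0.16, and at an unadjusted p under 0.05, 2 higher and 0 lower by limma). The smallest p was that of Dntt, which adds bases at segment joints, with a difference of 0.43 (limma adjusted p = 0.145). Rag2, a subunit of the recombinase, differed by 0.21 and Vpreb2, a surrogate light chain gene, by 0.24. Of 10 measured genes of class switching and hypermutation, 0 passed (median -0.11, and 0 higher and 2 lower at an unadjusted p under 0.05 by limma). The end-joining gene Xrcc4 differed by -0.26, the mismatch repair gene Pms2 by -0.24 and the break response gene Trp53bp1 by 0.26.

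Of 10 receptors and carriers of immunoglobulin, 0 passed (median 0.16, and 4 higher and 0 lower at an unadjusted p under 0.05 by limma). The shares over all sets, here and for the regulators below, were 7.47% higher and 8.95% lower at that unadjusted p. Fcer1g, the signalling chain shared by Fc receptors, read 5.13 and 5.40 in the KO arrays against 4.93 and 4.47 in the WT arrays (difference 0.56, limma adjusted p = 0.118). The inhibitory receptor Fcgr2b differed by 0.32 and the IgM receptor Fcmr by 0.22. Of 16 regulators of immunoglobulin genes, 0 passed (median 0.06, and 2 higher and 0 lower at an unadjusted p under 0.05 by limma). Spi1 (0.49) and Irf8 (0.47), factors of B cells and myeloid cells, and the B cell factor Pax5 (0.24) had the smallest p. Pou2af1, the coactivator at the octamer of immunoglobulin promoters, differed by 0.08, and its partner Pou2f2 by -0.03; these were chosen after their values were seen.

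The T cell receptor segments, the other rearranging family on the array, were read by 52 sets, of which 41 have distinct values. Of the 41, 4 rose and 0 fell (11 lower at an unadjusted p under 0.05 by limma), with a median of -0.16. The shares over all sets were 1.12% risen, 1.01% fallen and, at the unadjusted p, 7.47% higher and 8.95% lower. Both KO arrays lay above both WT arrays in 5 of the 41 and below in 20 (23.5% and 24.1% over all sets). The 4 that rose were all 4 sets of the gamma chain, whose receptors are found on gamma-delta T cells. Trgv1 read 6.96 and 7.23 in the KO arrays against 6.21 and 6.23 in the WT arrays, a 1.83-fold rise (limma adjusted p = 0.00511). The others list Trgv4 and Trgv6, with or without Trgv2, and rose by 0.64 to 0.67. Because they have symbols in common, they may not be separate readings. None of the 34 alpha segment sets passed, with a median of -0.17, and at an unadjusted p under 0.05, 0 were higher and 10 lower by limma. Both beta segment sets (-0.17 and -0.46) and the delta set (0.14) did not pass. The median over the 52 sets was -0.17, and it was -0.24 without KO replicate 2.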

How the data were processed

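The authors deposited log2 values, 1 per probe set and array, from 1-colour Affymetrix arrays. Per the submitters' processing notes, Partek and RMA were used (no versions); RMA brings every array to one probe distribution, so a shift of most genes would be removed, and it compresses folds of dim sets. The input was 200 ng of RNA of integrity above 9, amplified from random primers, per the labels. No detection calls were used.

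Symbols came from GEO's platform annotation. Of 35556 probe sets, 21789 carried 1 symbol and 1621 several. These 23410 were fitted together in R 4.3.3 by limma 3.58.1 (moderated test of genotype with no other term, two-sided, threshold 0.05 after Benjamini-Hochberg over all 23410), which was tested on simulated data. The prior degrees of freedom were 6.84, against 2.89 with all 35556. Unnamed sets, which can be controls, were kept for an alternative. Genes of the other lists were read from their single-symbol set with the highest mean, with symbols updated through RefSeq. Fold changes are differences of mean log2 values, KO minus WT; errors are SDs over 2 arrays or limma SEs. The number of arrays limits the precision.

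Named were Klf13, all immunoglobulin sets, and of each other list the members that passed and the 3 with the smallest p. Cd8a, Cd8b1 and the neutrophil and myeloid markers that did not pass were named outside this rule, and others are marked. The members, lists, tests and this rule were chosen with earlier results of these data known. A search of immunoglobulin promoters for the octamer motif was planned and not run, since no sequence of them was used here. Alternatives were all probe sets, 1 set per gene, the 11705 sets with the higher means, a further quantile normalization, median centring, a robust fit with a variance trend, a block for the replicate number, and each array left out.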

Additional observations from a re-analysis of the deposited data

How the results depend on the processing

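Of the 21 immunoglobulin sets that rose, 21 were also called after a further quantile normalization, median centring, a robust fit with a variance trend, the replicate block, and without KO replicate 2, and the 20 tested among the 11705 sets with the higher means were called there. With each array left out the count for all immunoglobulin sets ran from 13 to 21 (median difference 0.56 to 0.64), for heavy chain sets from 4 to 7 and for kappa sets from 9 to 14. Without WT replicate 1 or 2, 15 and 16 of the 21 were called. With all 35556 sets tested, 0 immunoglobulin, heavy chain, kappa, B cell, plasma cell or T cell receptor (gamma included) sets were called higher; that fit tests more sets and has fewer prior degrees of freedom.

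With 1 set per gene, sets with several symbols drop out, and 9 of 11 immunoglobulin sets were called (median 0.80, groups apart in 11), 2 of 3 heavy chain (median 0.80), 7 of 8 kappa (median 0.76), and 1 T cell receptor set, of the gamma chain (0.88), with a median of 0.03 over all T cell receptor sets. After a further quantile normalization the medians were 0.69 for all immunoglobulin, 0.63 for heavy chain and 0.75 for kappa sets. Among the sets with higher means, the heavy chain median was 0.63 and that of B cell markers 0.22. There 4 plasma cell markers and 1 regulator were called higher and 2 T cell receptor sets lower. Of all 11705 sets in that fit, 671 were called in either direction. In the robust fit with a variance trend, 5 plasma cell markers, 1 immunoglobulin receptor and 1 regulator were called higher. It called 3 T cell receptor sets lower, and 969 of all 23410 sets in either direction. The main fit called 262 of the 23410 higher and 237 lower.

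The correlation of the deviations of same-numbered arrays was 0.0188. This value cannot tell whether same-numbered samples were paired. The replicate block called 6 plasma cell markers, 1 recombination gene, 1 immunoglobulin receptor and 2 regulators higher and 5 T cell receptor sets lower. It called 23 immunoglobulin sets: the 21, Igkv5-43 (limma adjusted p = 5e-07) and Ighm set 10402864 (0.0232). Over all 23410 sets it called 1304 in either direction, against 262 higher and 237 lower in the main fit.

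With each array left out, B cell markers called ran from 1 to 2 (median 0.10 to 0.22), the plasma cell median from 0.10 to 0.27, recombination genes called from 0 to 1, the class switch median from -0.18 to 0.04, receptors called from 0 to 1, regulators called from 0 to 1 (median -0.06 to 0.12), and T cell receptor sets called lower from 0 to 8. Values near 0 changed sign for Igha set 10403063 (-0.03 to 0.11 with each array left out) and for lambda set 10438415 (0.00 after a further quantile normalization, and -0.11 to 0.00 with each array left out). The number called over all sets also changed with the array left out. For these changes other than those of sets dropped or added, the cause was not tested.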
